A study of Mus musculus with 18 samples.

Results

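The 6 genes described here, Nfkbia, Nfkb1, Icam1, Socs3, Lcn2 and Cfb, belong to the NF-kB and acute-phase response, and each is 1 of 10509 genes listed in the expression table. They were picked by symbol, with earlier knockout against WT values of these libraries in view, so that contrast is described for them and not tested as a finding. RNA was read at transcript 3' ends in pancreatic islets of mice fed a high-fat diet for 12 weeks. The 10 knockout libraries (genotype NRK1_BKO, KO1 to KO10) came from mice in which NRK1, a nicotinamide riboside kinase that serves NAD synthesis, was removed with an Ins1Cre driver, and the 8 WT libraries (NRK1_WT, WT1 to WT8) from WT mice on the same diet. The Ins1 promoter directs Cre to beta cells, so the other islet cells keep the gene, and all of them are in the RNA. Whether the WT mice carried Cre, and their age and sex, the labels do not say.

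NF-kB is a family of dimeric transcription factors held in the cytoplasm by inhibitors of the IkB type. Cytokines such as IL-1 and TNF lead to destruction of the inhibitor, the dimer enters the nucleus, and its targets include its own inhibitor, adhesion molecules, complement factors and secreted acute-phase proteins. IL-6 type cytokines act through STAT3, which induces the feedback inhibitor Socs3 and also acts on acute-phase genes. Islet endocrine cells carry IL-1 receptors and respond to these cytokines, as do the endothelial cells and macrophages of the islet.

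Values are log2 of CPM (reads scaled by 1 factor per library) plus a floor of 0.562 CPM, so a gene without reads stands at -0.83. In these units 1 read was worth 0.238 to 0.411 CPM. Libraries held 2831137 to 4303680 reads over the listed genes, and 33 to 346 genes were without reads. The 9 measured beta-cell markers summed to 377017 to 785641 CPM per library. CPM per read did not follow depth alone, at 0.390 in KO3 and 0.265 in KO6 with 3292303 and 3295299 reads. Sums of CPM are therefore not shares of a library. Nmrk1, the targeted gene, stood at 1.99 ± 0.49 (SD, n = 10) in knockout libraries and at 2.01 ± 0.92 (SD, n = 8) in those of WT mice, at 3 to 36 reads a library. Which exons were removed is not stated in the labels, so these 3' reads do not check the genotype. Ins1, whose promoter drives the Cre, was at 15.36 ± 0.56 (SD, n = 10) in the knockout against 16.04 ± 0.35 (SD, n = 8) in WT (limma adjusted p = 0.926). Titles carry a separate number for each library, but nothing says what separates them, so p-values measure the spread between these libraries, which may in part be technical. Bulk RNA cannot tell fewer cells of a type from less RNA per cell.

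The promoters of Nfkbia and Icam1 are shown because these genes were highest in the same 4 libraries and because both hold the run GGAAATTCC, a form of the NF-kB site. They are the 250 bases before the annotated start, from RefSeq (GRCm38.p6), 5′ to 3′ on the gene's strand. Capitals mark every match to the 4 motifs searched. Nfkbia lies on the minus strand, chr12:55492648-55492897, and Icam1 on the plus strand, chr9:21015690-21015939.
Nfkbia: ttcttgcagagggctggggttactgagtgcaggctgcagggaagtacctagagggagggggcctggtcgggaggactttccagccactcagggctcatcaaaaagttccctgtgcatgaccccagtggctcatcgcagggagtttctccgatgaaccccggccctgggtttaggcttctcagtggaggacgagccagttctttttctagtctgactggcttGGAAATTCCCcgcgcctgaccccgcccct
Icam1: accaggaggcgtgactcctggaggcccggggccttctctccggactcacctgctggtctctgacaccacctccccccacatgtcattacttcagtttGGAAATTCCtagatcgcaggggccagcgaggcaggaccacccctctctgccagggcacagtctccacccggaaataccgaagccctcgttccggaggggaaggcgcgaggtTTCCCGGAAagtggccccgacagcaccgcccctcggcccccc

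In Nfkbia the match lay 29 to 20 bases before the start and also met the NF-kB consensus of 10 bases, which overlaps it. In Icam1 the GGAAATTCC run lay 153 to 145 bases before the start and did not meet the consensus. Icam1 also held TTCNNNGAA, the palindrome bound by STAT factors, as TTCCCGGAA at 42 to 34 bases, and Socs3 held it as TTCTTAGAA at 154 to 146 bases. The Socs3 window, chr11:117969367-117969616 on the minus strand, lies inside the gene's full span, so its distances are from an annotated start within that span and not from its outer end. In Lcn2 (chr2:32387740-32387989, minus strand) the only match was to TTGCNNAA, a form of the C/EBP site, at 216 to 209 bases. Both strands were searched. Of 32851 mouse promoters of the same length, 7.25% held the NF-kB consensus, 0.286% GGAAATTCC, 7.02% TTCNNNGAA and 9.56% TTGCNNAA. The run GGAAATTCC was searched after the sequences had been seen. Promoters of 4 of the 6 genes were in the RefSeq table used. A match is a description of letters and not evidence of binding.

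Nfkbia encodes IkB-alpha, the inhibitor that NF-kB itself induces (chromosome 12, 55489409 to 55492647). It was the most deeply read of the 6, with 183 to 2351 reads per library. The knockout libraries KO1, KO7 and KO8 stood at nearly the same level, 9.37, 9.36 and 9.37, which is 660, 657 and 660 CPM. WT5 came next at 8.32, or 318 CPM. The other 7 knockout libraries ran from 6.61 through a median of 7.29 to 7.98, and the other 7 WT libraries from 6.24 through 7.04 to 7.65. Outside these 4 libraries the genotypes therefore overlapped over most of their range.

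Nfkb1 encodes p105, which is processed to the p50 subunit of NF-kB (chromosome 3, 135584655 to 135691969). It varied least of the 6, with 30 to 144 reads per library. The highest libraries were KO7 at 5.35, KO2 at 5.27 and KO8 at 5.16, followed by KO1 at 4.73. WT5, high for Nfkbia, was at 4.17, close to the WT median of 4.15. All 8 WT libraries lay between 3.69 and 4.40, and 6 of 10 knockout libraries lay above the highest of them. The other 4 knockout libraries were inside the WT range.

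Icam1 encodes an adhesion molecule that leukocytes bind (chromosome 9, 21015940 to 21028814). Its 4 highest libraries were again KO7 at 5.80, KO8 at 5.0, KO1 at 4.96 and WT5 at 4.58, with 198, 103, 91 and 98 reads. Elsewhere the knockout ran from -0.27 through a median of 2.57 to 3.74 and WT from -0.29 through 1.30 to 2.82. The lowest libraries, KO6, WT3 and WT7, held 1 read each. KO6 is from the same run of consecutive title numbers as KO7, KO8 and WT5, and its Icam1 and Lcn2 values were among the lowest of the 18.

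Socs3 encodes the inhibitor that STAT3 induces to end cytokine signalling (chromosome 11, 117966079 to 117970336). Its pattern was different. Knockout values ran from 0.79 in KO3 through a median of 4.35 to 4.93 in KO1, and WT values from -0.04 in WT7 through 3.29 to 3.88 in WT3. KO1, KO7 and KO8 were highest at 4.93, 4.83 and 4.73, but KO5, KO4, KO9 and KO6 followed at 4.55, 4.46, 4.25 and 4.18, and 7 of 10 knockout libraries lay above the highest WT library. WT5 was at 2.90, lower than all WT libraries but WT7. KO3 and WT7 held 3 reads and 1 read of Socs3, and they were among the 3 libraries with the most genes without reads, 227 and 346.

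Lcn2 encodes lipocalin 2, a secreted protein that binds bacterial iron carriers and is a classic acute-phase product (chromosome 2, 32384637 to 32387739). It was at 6.10 in KO7, 5.63 in KO8, 4.96 in WT5, 4.34 in KO5 and 4.20 in KO1, with 244, 160, 128, 81 and 53 reads. The next library, WT3, was at 2.28 with 17 reads, and WT8 held 0 reads, which allows up to 3 reads (counting error only). The knockout median was 1.59 and the WT median 1.52. Lcn2 thus marked the same 4 libraries and KO5.

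Cfb encodes complement factor B, the protease precursor of the alternative complement pathway (chromosome 17, 34856374 to 34862514). It separated the 4 libraries most clearly among the 6, at 6.58 in KO7, 5.94 in KO1, 5.94 in WT5 and 5.87 in KO8, with 341, 181, 256 and 190 reads. The next were KO5 at 3.77 with 54 reads and KO9 at 2.76. The other libraries lay between -0.83, which is 0 reads in KO2, and 2.37. WT5 lay within the range of the 3 knockout libraries, whereas the other 7 WT libraries held 1 to 11 reads.

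**Figure D1:**
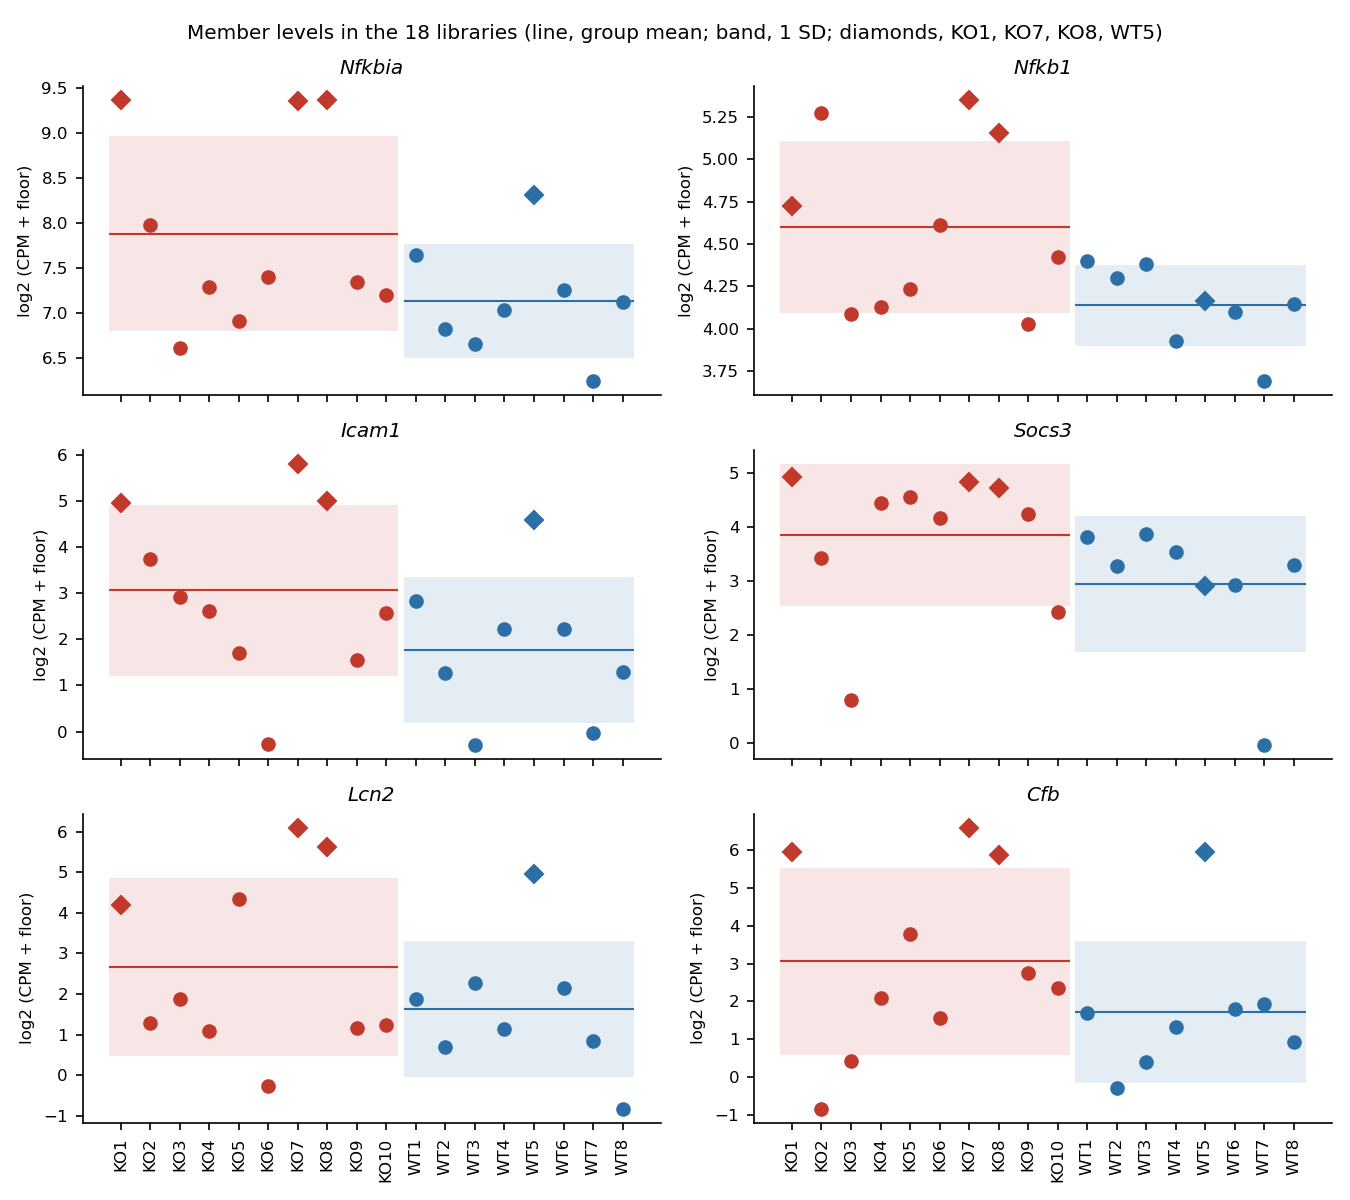
Level of each of the 6 genes in the 18 libraries, as log2 of CPM plus the floor (y axis), with knockout in red and WT in blue, group means as lines and 1 SD as bands. KO1, KO7, KO8 and WT5 (diamonds) are the 4 highest libraries for Nfkbia, Icam1 and Cfb, while WT5 lies inside the WT cluster for Nfkb1 and Socs3.

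For 3 of the 6 genes, Nfkbia, Icam1 and Cfb, the 4 highest of the 18 libraries were thus KO1, KO7, KO8 and WT5. Among all listed genes this held for 30, or 0.285%. The pattern was noticed in these genes and then counted, so it describes the libraries and tests nothing. Besides the 3 members, the 30 held 4 genes of the NF-kB and acute-phase lists. They are Nfkbiz, an atypical IkB protein that acts in the nucleus, Bcl3, another nuclear IkB protein, Birc3, an inhibitor of apoptosis that relays TNF receptor signals, and Cebpd, a transcription factor of the acute phase. The other 23, on none of these lists, included the guanylate-binding GTPases Gbp2, Gbp5, Gbp7 and Gbp8 and Irgm1, which interferon induces. Also among them were the immunoproteasome subunit Psmb10 and the genes Ripk2, Tifa and Tnfaip2. These names were picked after their values had been seen.

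Gbp5 set the 4 libraries apart by the widest gap. It was at 5.46 in KO1, 5.86 in KO7, 5.62 in KO8 and 5.05 in WT5, and no other library exceeded 1.97. Birc3 was at 4.73, 5.75, 5.07 and 4.77 in the same order, with the next library at 2.43. Gbp5 held 0 to 206 reads and Birc3 3 to 191 reads per library. For other genes among the 30 the gap was small, such as 0.03 for Mvp and for Mapk8ip3.

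**Figure D2:**
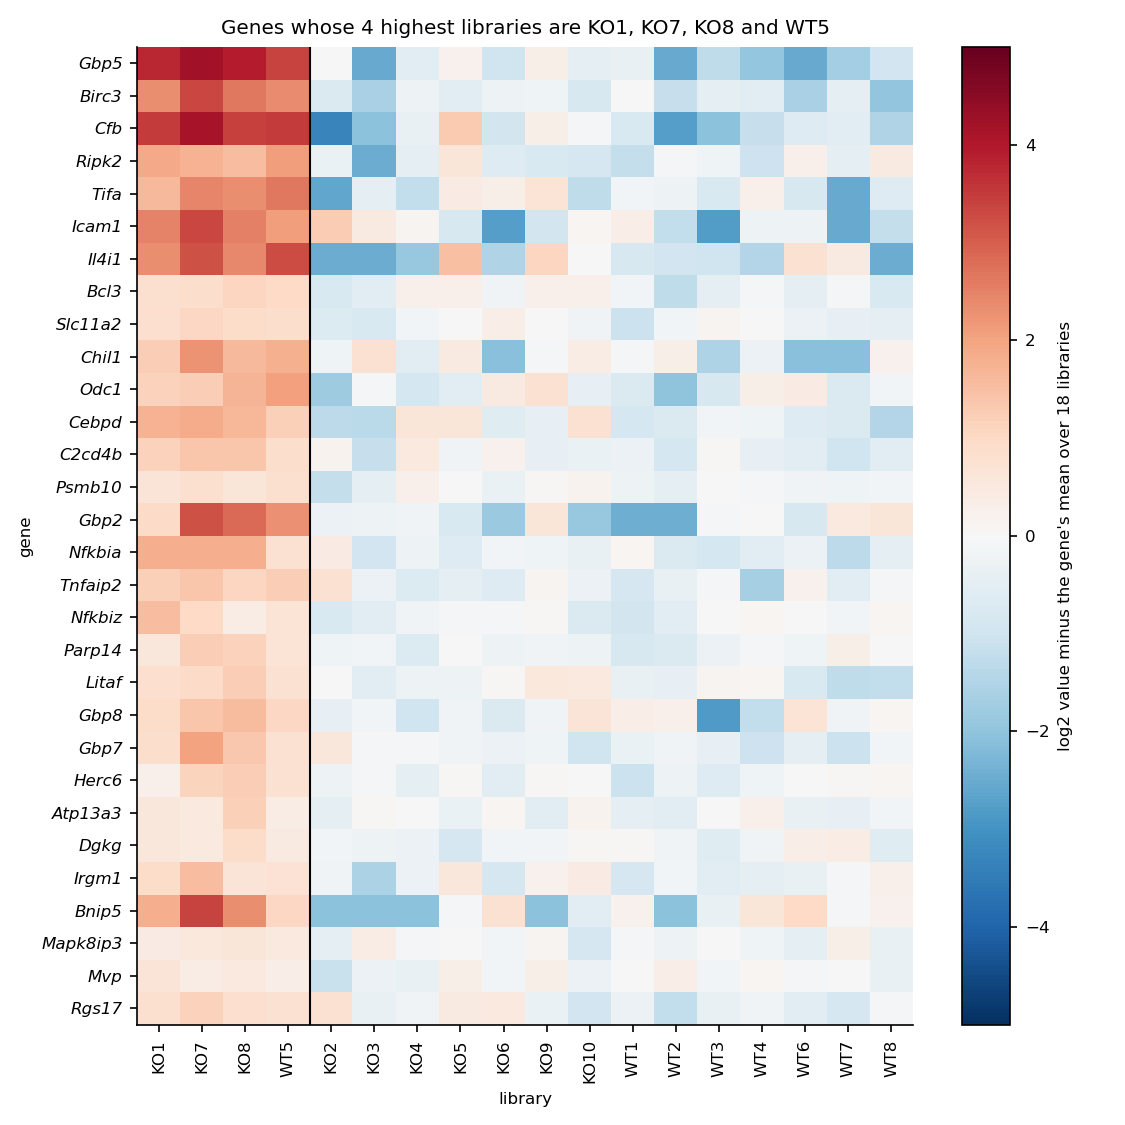
The 30 genes (rows) whose 4 highest libraries are KO1, KO7, KO8 and WT5 (first 4 columns), as log2 value minus the gene's mean over the 18 libraries (colour), ordered by the gap to the next library. Gbp5, Birc3 and Cfb head the order. By the way the genes were chosen, the first 4 columns hold the highest values of every row.

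Depth of these 4 libraries lay within the range of the others. They held 3198074, 3125093, 3011974 and 4146746 reads in the order KO1, KO7, KO8 and WT5, and 58, 79, 134 and 105 genes without reads. KO7, KO8 and WT5 bear consecutive numbers in their titles, next to KO6, whereas the number of KO1 has a digit more. The labels do not say what these numbers stand for.

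Markers of other cells were summed beside the 6 genes. Macrophage markers, of which 11 of 15 were listed, summed to 83.0 CPM in KO8, 103 in KO7 and 139 in WT5, and by mean log2 value these were the 3 lowest libraries (ranks 18, 16 and 17 of 18), while KO1 at 309 CPM ranked 2. Over all libraries the sum ran from 83.0 to 410 CPM in the knockout and from 139 to 324 in WT. The 8 neutrophil and 9 lymphocyte markers were not listed. Endothelial markers (11 of 11 listed) summed to 402 to 633 CPM in the knockout and 396 to 552 in WT. Ductal markers (8 of 10) summed to 586 to 1270 and 663 to 848 CPM, and acinar markers (11 of 13) to 50.3 to 2040 and 59.1 to 1947 CPM, lowest in KO7. Adipocyte markers (3 of 5) summed to 26.3 to 106 CPM in the knockout and 20.4 to 43.7 in WT, and alpha-cell markers (5 of 6) to 2059 to 9324 and 3876 to 11818 CPM. These lists had the widest differences in mean log2 value, 0.70 and -0.46 as knockout minus WT, and their part in the members' contrast was not tested. With genotype means removed, the members' mean value correlated with 0 of 8 marker lists after adjustment. That mean is of unscaled log2 values, so Cfb, Lcn2 and Icam1, of widest spread, weigh most in it. For beta-cell markers the relation was negative (Pearson's r = -0.47, permutation p = 0.0797, adjusted p = 0.478; Spearman's rho = -0.34, permutation p = 0.183, adjusted p = 0.608; n = 18), and r was -0.05 without the 2 libraries farthest from the median. For macrophage markers r was -0.37 (permutation p = 0.179, adjusted p = 0.478), rho was -0.38 (permutation p = 0.135, adjusted p = 0.608), and r was -0.65 without the 2 farthest libraries. The part of cell make-up in the members' values was not tested beyond these values.

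Co-variation of the 6 genes was examined with genotype means removed, for 15 pairs. Over 18 libraries all 15 values of Pearson's r were above 0, and 8 pairs passed (permutation within genotype, adjusted p under 0.05 over the 15). In the 6 pairs among Nfkbia, Icam1, Lcn2 and Cfb the 4 libraries stood high together. A pooled r is therefore given only for Nfkbia with Icam1, where WT5 lay close to the rest. There WT5, at 8.32 and 4.58, was nearer to KO2, at 7.98 and 3.74, than to KO1, at 9.37 and 4.96. Pearson's r was 0.83 over 18 libraries (permutation p = 5e-05, adjusted p = 0.00075) and 0.79 without KO8 and KO1. Spearman's rho was 0.76 (permutation p = 0.00044, adjusted p = 0.0066). This r still pools the 4 libraries with the rest. Over the other 14 libraries those 6 pairs had r from -0.22 for Icam1 and Cfb to 0.50 for Nfkbia and Icam1. None of the 15 pairs passed over these 14, and 9 of 15 were above 0. An unadjusted permutation p under 0.05 was found for 3 pairs, Nfkbia with Nfkb1, Nfkbia with Socs3 and, with a negative r of -0.64, Nfkb1 with Cfb (p = 0.0375, adjusted p = 0.233). The 4 libraries alone are too few for a correlation.

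Nfkbia and Nfkb1 had the highest correlation of the pairs with Nfkb1 or Socs3. Pearson's r was 0.72 over 18 libraries (permutation p = 0.00528, adjusted p = 0.0132), and Spearman's rho was 0.76 (permutation p = 0.00139, adjusted p = 0.0104). By genotype r was 0.79 in the knockout, which holds KO1, KO7 and KO8, and 0.39 in WT. Without KO8 and KO1, the libraries farthest from the Nfkbia median, r was again 0.72. Within runs of title numbers it was 0.68 (12 libraries, with run means but not genotype means removed). Over the 14 libraries it was 0.67 (permutation p = 0.0128, adjusted p = 0.192), and 0.20 without WT7 and KO2, so among the 14 it rested on those libraries. Nfkbia and Socs3 had an r of 0.54 (permutation p = 0.0200, adjusted p = 0.0375), which was 0.48 without KO8 and KO1, and a rho of 0.50 that did not pass (permutation p = 0.0502, adjusted p = 0.0990). Socs3 passed with none of the other 4 genes. Its r was 0.24 with Icam1, 0.31 with Lcn2, 0.34 with Cfb and 0.45 with Nfkb1.

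**Figure D3:**
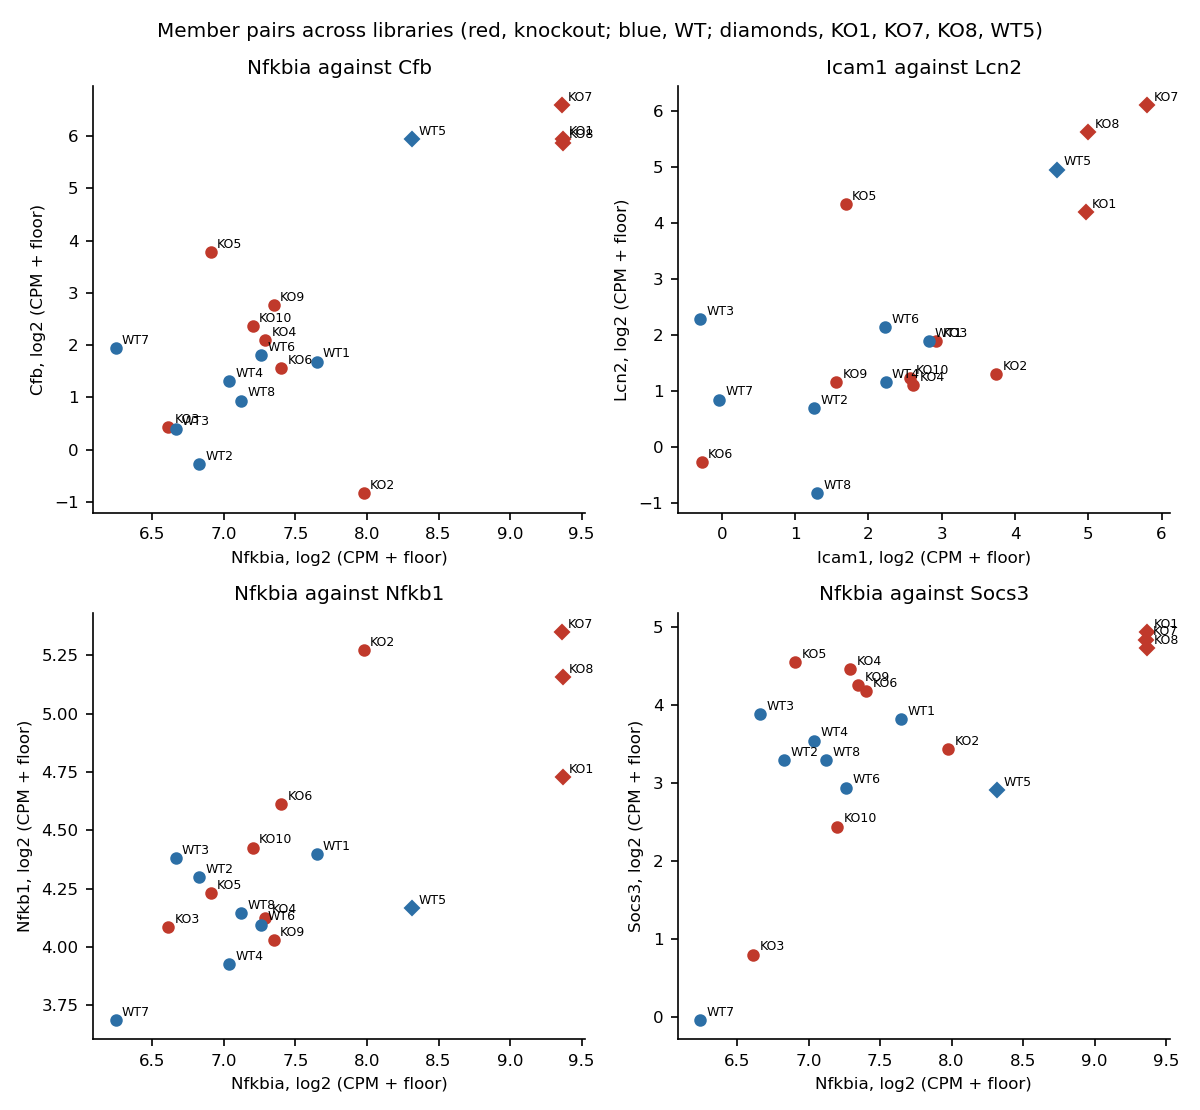
Each point is 1 library, with log2 of CPM plus the floor of a gene on each axis, knockout in red and WT in blue. Against Nfkbia, Cfb sets KO1, KO7, KO8 and WT5 (diamonds) in a cluster of their own, whereas WT5 drops out of it for Nfkb1 and Socs3.

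The genes most like each member, among those with a mean log2 value of at least 5, differed between the 6. Likeness is Pearson's r of genotype-centred values over 18 libraries, given as a description, with r over the 14 libraries beside it. For Cfb they were Bcl3 at 0.93 (0.84 over the 14), Psmb10 at 0.92 (0.78) and the antigen presentation gene Tapbpl at 0.84 (0.43). For Nfkbia they were the islet gene C2cd4b at 0.88 (0.54), the interferon regulatory factor Irf1 at 0.87 (0.82) and Gbp7 at 0.85 (0.45). For Lcn2 they were Tapbpl at 0.85 (0.50), Mat1a at 0.76 (0.22) and the ER stress sensor Atf6 at 0.74 (0.43). For Icam1 they were Gtpbp2 at 0.84 (0.73), Nfkbia at 0.83 (0.50) and Gnl3 at 0.81 (0.65).

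Nfkb1 and Socs3 had other companions, with no gene in common with those of the first 4. For Nfkb1 they were Ubxn4 at 0.89 (0.86 over the 14), Fnip1 at 0.89 (0.93) and Steap2 at 0.88 (0.88). For Socs3 they were Ganab, a glucosidase subunit of the ER, at 0.89 (0.92), the ribosomal protein gene Rpl34 at 0.87 (0.91) and Cd63 at 0.86 (0.88). Their likeness was as high without the 4 libraries. For Socs3 the 14 still hold its lowest libraries, KO3 with 3 reads and WT7 with 1 read. For Nfkb1 they still hold KO2 at 5.27 and WT7 at 3.69, its highest and lowest among the 14. KO2 and WT7 had 320 and 346 genes without reads. Likeness without these libraries was not computed. Of about 3371 genes compared, the share with r above 0.5 ran from 3.65% for Nfkbia to 10.4% for Nfkb1.

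The other listed genes of the pathway were set beside the members in the same way. Of 104 genes on the lists, 59 besides the 6 were in the table. The 6 members were averaged as centred log2 values without scaling, so those of widest spread weigh most. Within genotypes the SD was 2.23 for Cfb, 1.99 for Lcn2 and 1.74 for Icam1. It was 1.29 for Socs3, 0.91 for Nfkbia and 0.41 for Nfkb1. With the mean of the 6 members, 20 of 59 (33.9%) had r above 0.5 over 18 libraries, against 3.30% of all other listed genes, and the median r was 0.26 against 0.02. Without the 4 libraries it was 5 of 59 (8.47%) against 5.68%, with medians of 0.17 and 0.02. Those 5 were Irak2, Traf6, Plau, Csf1 and Cp, of which Csf1 and Cp alone were also above 0.5 over 18 libraries. Counts by role are given with no test of a difference between roles. The values by gene below pool the 4 libraries with the rest, and r over the 14 stands in brackets. These shares are given as descriptions, since the genes of a library share its depth and scaling.

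Among the other NF-kB subunits, r was 0.64 for Nfkb2 (-0.16 over the 14) and 0.64 for Relb (0.49). Rela, at -0.07 (0.42), and Rel, at 0.20 (-0.25), did not reach 0.5. Of the inhibitors and feedback genes 5 of 11 were above 0.5. Among them were Bcl3 at 0.78 (0.36), Nfkbiz at 0.72 (-0.07) and Tnip1, a partner of the deubiquitinase A20, at 0.66 (-0.27), whereas Socs2 was at 0.04 (-0.20). Of receptors and signal relay genes 3 of 21 were above 0.5, namely Birc3 at 0.90 (0.28), Cd40 at 0.69 (0.37) and Traf2 at 0.54 (0.24). The IL-1 receptor gene Il1r1 and the kinase gene Irak1, the genes of highest mean in that group, were at 0.02 (0.17) and -0.16 (-0.39). In the IL-6 family relay, Cebpd was at 0.84 (0.42), Stat3 at 0.64 (0.45), Cebpb at 0.58 (0.22) and the kinase gene Jak1 at 0.12 (-0.04).

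Among adhesion, cytokine and survival targets 4 of 11 were above 0.5. They were the macrophage growth factor Csf1 at 0.83 (0.60 over the 14), Irf1 at 0.71 (0.34), Ier3 at 0.59 (-0.03) and Gadd45b at 0.53 (0.10). Il1b was at 0.23 (0.11) and Vcam1, an adhesion molecule like Icam1, at 0.26 (0.26). Among acute-phase and complement genes 3 of 6 were above 0.5. They were Lrg1 at 0.79 (0.30), the ceruloplasmin gene Cp at 0.72 (0.63) and the protease inhibitor Serpina3n at 0.63 (0.12). Pigr, which carries antibodies across epithelia, was at 0.48 (0.39), and the central complement gene C3 was at 0.33 (0.24). Cd40, Relb, Cp, Gadd45b and Traf2 rest on low reads, 0 to 32, 0 to 44, 1 to 36, 0 to 50 and 5 to 44 per library. Lrg1 held 2 to 209 reads with a median of 12.

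**Figure D4:**
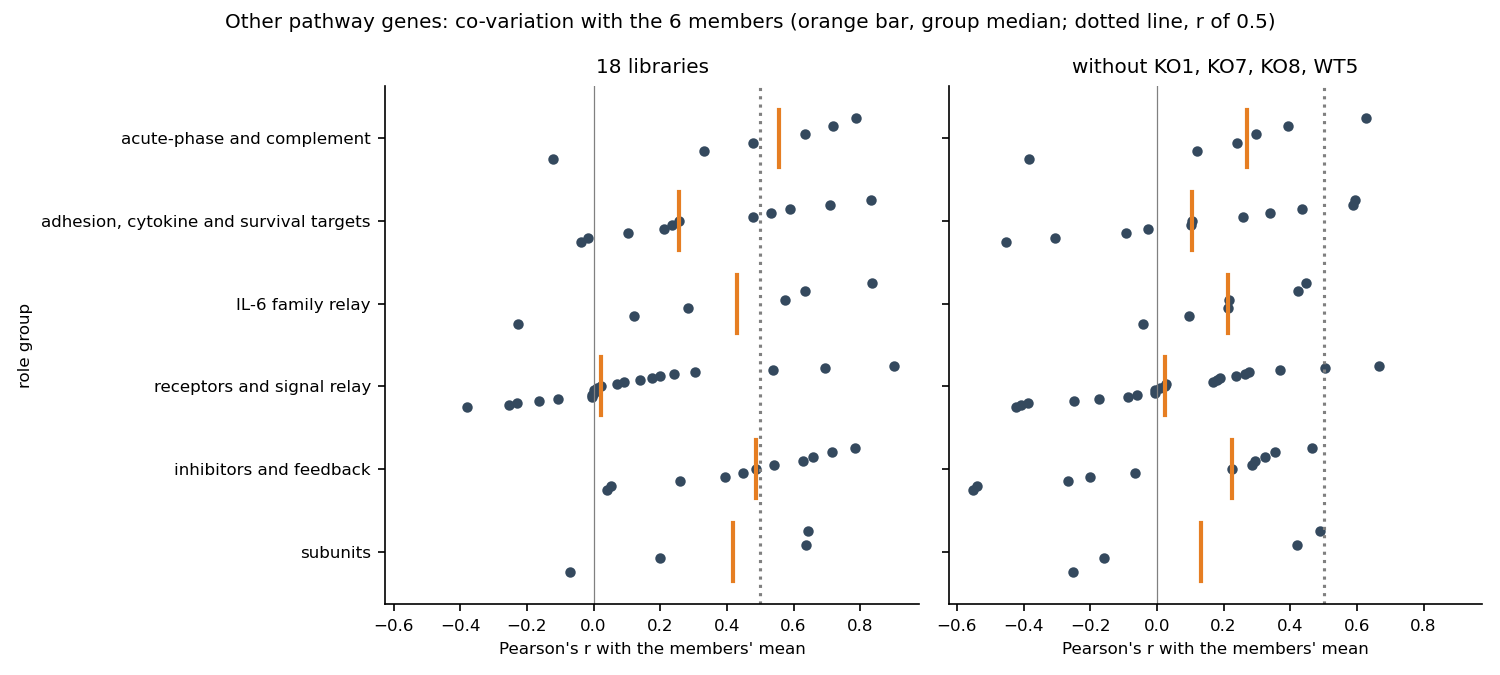
Pearson's r of each of 59 other pathway genes with the mean of the 6 members (x axis), by role group (y axis), over 18 libraries on the left and without KO1, KO7, KO8 and WT5 on the right. In all, 20 genes lie above 0.5 on the left and 5 on the right.

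Between genotypes all 6 genes had a higher mean in the knockout, and none passed the test over all genes. Of all listed genes 49.6% were higher in the knockout and 0% were called by limma, so the direction is a description of genes picked in view of it. Mean log2 values were 7.88 ± 1.08 (SD, n = 10) against 7.14 ± 0.63 (SD, n = 8) for Nfkbia, a fold change of 0.74 on the log2 scale (SE 0.34, 95% interval 0.05 to 1.44). For Nfkb1 they were 4.60 ± 0.51 (SD, n = 10) against 4.14 ± 0.24 (SD, n = 8), a change of 0.46 (SE 0.20, 0.05 to 0.88). The difference was 1.30 for Icam1 (SE 0.66, -0.06 to 2.65), 0.91 for Socs3 (SE 0.49, -0.11 to 1.92), 1.03 for Lcn2 (SE 0.75, -0.51 to 2.56) and 1.33 for Cfb (SE 0.83, -0.36 to 3.03). Limma's adjusted p over 10509 genes was 0.925 for Nfkbia and Nfkb1 and 0.945 for the other 4. The median over the 6 was 0.97, against -0.00255 over all genes.

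The size of these differences moved with the few high libraries, of which 3 were knockout and 1 was WT. Without KO7 and KO8 the changes were 0.37 for Nfkbia, 0.30 for Nfkb1, 0.71 for Icam1, 0.68 for Socs3, 0.23 for Lcn2 and 0.54 for Cfb, with a median of 0.46. Leaving out WT5 as well, they were 0.54, 0.31, 1.11, 0.67, 0.70 and 1.14, with a median of 0.69. Leaving out KO1 too, they were 0.28, 0.26, 0.76, 0.48, 0.37 and 0.62, with a median of 0.43. Every one of these values was above 0 and none passed, with limma adjusted p of 0.995 or above. Nfkb1 and Socs3, for which WT5 was not high, hardly moved when WT5 joined KO7 and KO8 among the libraries left out, whereas Lcn2 went from 0.23 to 0.70 and Cfb from 0.54 to 1.14.

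Single libraries also moved these sizes. With 1 library left out the change ran from 0.58 to 0.91 for Nfkbia, 0.38 to 0.53 for Nfkb1 and 0.99 to 1.70 for Icam1. Without WT7 the Socs3 change was 0.48 in place of 0.91. Without KO7 the Lcn2 change was 0.65 in place of 1.03, and without WT5 the Cfb change was 1.94 in place of 1.33. Without KO2, KO3 and WT7, which had the most genes without reads, Cfb was at 2.18 and Socs3 at 0.92 with a smaller SE of 0.28 (limma adjusted p = 0.565 and 0.449).

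Within runs of consecutive title numbers the direction was not shared by all genes. In the run of KO2, KO3, WT1 and WT2 the knockout mean was higher by 1.29 for Icam1 and 0.06 for Nfkbia, while Socs3 stood at -1.44 and Cfb at -0.91. In the run of KO4, KO5, WT3 and WT4 all 6 were higher in the knockout, by 0.03 for Nfkb1 to 2.07 for Cfb. In the run of KO6, KO7, KO8 and WT5, with 1 WT library, Socs3 was higher by 1.68 and Nfkb1 by 0.87, and Icam1, Lcn2 and Cfb stood at -1.07, -1.14 and -1.27. With a term for the run, fitted on these 12, the changes were 0.22 for Nfkbia, 0.37 for Nfkb1, 0.61 for Icam1, 0.22 for Socs3, 0.16 for Lcn2 and 0.08 for Cfb, none of which passed (limma adjusted p from 0.663 to 0.985). The other 6 libraries lie in no run that holds both genotypes.

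**Figure D5:**
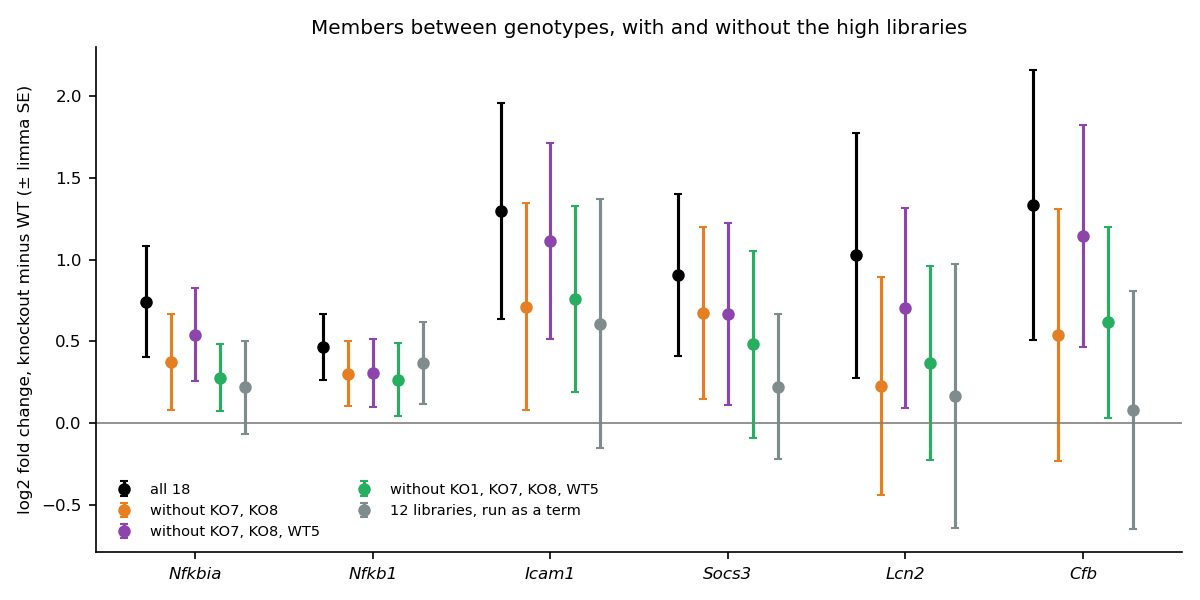
Fold change of each gene between knockout and WT on the log2 scale (y axis), with limma's SE as bars, over all 18 libraries, with the named libraries left out, and over 12 libraries with the run of title numbers as a term. The 6 values over all libraries run from 0.46 to 1.33, and those with the run as a term from 0.08 to 0.61.

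Of the 59 other listed genes of the pathway, 43 were higher and 16 lower in the knockout, where 49.6% of all genes were higher. None of the 59 passed over all genes, and their median change was 0.15, which turned to -0.08 in the fit with a run term. By role, 4 of 4 subunits, 6 of 11 inhibitors, 14 of 21 receptors and relay genes, 4 of 6 genes of the IL-6 family relay, 10 of 11 targets and 5 of 6 acute-phase genes were higher. Group medians ran from 0.05 for the inhibitors to 0.53 for the acute-phase genes. The genes of highest mean in each role had values of 0.04 for Rela, 0.56 for Rel, 0.21 for Tnip1, -0.07 for Socs2, -0.20 for Il1r1, -0.02 for Irak1, -0.20 for Jak1, 0.16 for Stat3, 0.25 for Irf1, 0.12 for Ier3, 0.88 for Serpina3n and 0.07 for Pigr. The TNF receptor gene Tnfrsf1a, at 0.59, was 1 of 2 with an unadjusted limma p under 0.05 (p = 0.00771, adjusted p = 0.811), and its r with the members was 0.09. The other was Serpina3n (p = 0.0454, adjusted p = 0.925). Over the whole table of 10509 genes limma gave 0 calls and 567 unadjusted p-values under 0.05 (5.4%). Limma voom on recovered reads gave 0 and 546, and an exact rank-sum test 0 and 535.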

How the data were processed

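The authors deposited 1 table of log2 values for 10509 genes in 18 libraries made with a kit for transcript 3' ends (QuantSeq FWD), per the labels' protocols. The build GRCm38 and the tools edgeR, HTSeq 0.6.1 and STAR 2.5.2 appear in the submitters' processing notes, without roles. The labels state neither the annotation nor a filter or prior count. The lowest deposited log2 value was -0.83 in each column. Less this floor, linear values were whole multiples of 1 read in 100% of values (tolerance 0.05 reads), so reads were recovered.

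Samples were grouped by the genotype label and numbered within a group. The 73 same-group pairs differed by more than sampling noise (chi-square per degree of freedom 6.01 to 41.3). The contrast was limma 3.58.1 in R 4.3.3 (empirical Bayes with trend, two-sided, Benjamini-Hochberg over all genes, adjusted p under 0.05). The filter, log2 above 0 in at least 8 libraries, kept 10509 genes. Correlations used genotype-centred values and 100000 permutations within genotype, two-sided. Fits and permutations were tested on simulated data. Members, lists and tests were chosen with earlier results of these data known. The rule named the 6 members, the 2 genes of highest mean per role group and the 3 most like each member. Other genes were named after their values were seen, as were KO1, KO7, KO8 and WT5 as libraries left out together. Read numbers cover counting error only, since PCR copies are not independent molecules.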

Additional observations from a re-analysis of the deposited data

Results flagged for a closer look

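Of 12 sets checked (6 genes in each genotype), 2 held a library far from the rest of its group, where chance flags about 1 set in 20. In WT the Cfb value of WT5, 5.94, lay above the next library at 1.94, a gap of 0.643 of the group's range against a critical value of 0.526. In WT the Socs3 value of WT7, -0.04, lay below the next library at 2.90, a gap of 0.750 of the range against 0.526. Cfb rested on 256 reads in WT5 and Socs3 on 1 read in WT7, the library with the most genes without reads. None of the 6 genes had such a library in the knockout group. The gap is taken to the next library alone, so libraries that stand high together, such as KO1, KO7 and KO8, mask one another. This check could not flag them as a set.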

How the results depend on the processing

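No gene was called under any alternative run, and the 6 fold changes were above 0 under each alternative that kept the gene. The stricter filter, log2 above 3 in at least 8 libraries, kept 7760 genes and dropped 3 of the 6, Icam1, Lcn2 and Cfb. The median of the 6 was 0.97, from 0.72 to 1.21 with 1 library left out, 0.46 without KO7 and KO8, and 0.22 over 12 libraries fitted with a run term. The median of the 59 other genes was 0.15, from 0.11 to 0.21 with 1 library left out, and -0.08 in the fit with a run term. The number of pairs that co-varied was 8, and 4 with Spearman's rho, 2 without KO7 and KO8, and 6 to 10 with 1 library left out. It was 0 without KO7, KO8 and WT5, without these and KO1, and over 12 libraries with run and genotype means removed. With run means alone removed from those 12, r was 0.82 for Nfkbia and Icam1 and 0.88 for Lcn2 and Cfb. KO7, KO8 and WT5 are among the 12. The number of other genes with r above 0.5 was 20, also over those 12 libraries with run and genotype means removed. It was 13 without KO7, KO8 and WT5, 5 without these and KO1, and 18 to 22 with 1 library left out. Fewer libraries give less power, and the cause of each loss was not tested. At 0 to 20 reads per library, as for Lcn2 and Cfb in most libraries, the log2 value moves with a few reads. No paired analysis was possible because the labels give no replicate numbers shared between genotypes.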
